A study of Homo sapiens with 4 samples.

Results

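Serpins are a family of proteins built on one fold, most of which trap a serine or cysteine protease by offering it an exposed loop as bait and then locking the enzyme in a covalent complex. A few members have lost this activity and work as hormone carriers, chaperones or secreted growth-regulating factors. Fibroblasts make several kinds: the collagen chaperone of the endoplasmic reticulum, secreted inhibitors that act around the cell, and members of clade B, which mostly lack a signal peptide and stay in the cytosol.

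The 10 serpin genes described here are SERPINB1, SERPINB2, SERPINB6, SERPINB7, SERPINB8, SERPINB9, SERPINE2, SERPINF1, SERPINH1 and SERPINI1, each found by its symbol in 1 of the 63651 rows of the deposited expression table. They were chosen by name with their levels in both groups, and the differences between the groups, already known, so the values below describe them and test nothing. The cells were BJ-5ta, human foreskin fibroblasts immortalized with telomerase, in a clonal line carrying a FOXA2 transgene under doxycycline control, grown with hygromycin B, puromycin and bFGF. FOXA2 is a forkhead transcription factor of endoderm and liver. The labels give 2 uninduced samples, and 2 induced samples that received doxycycline at 0.5 µg/ml. They also mention overnight mimosine, which halts cells in G1, without saying which cultures had it, and no doxycycline-treated cells without the transgene were analysed here.

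The table gives 1 FPKM value (a fragment count corrected for the length of the transcript and for sequencing depth) per gene and group, and confidence bounds below and above it whose level is not stated. There is no value per sample, hence no spread between cultures, no SD and no p-value. A gene is said to have risen or fallen only where the deposited intervals of the groups do not overlap. FOXA2 itself was at 4.82 FPKM uninduced (interval 0.526 to 9.12) and 104 FPKM induced (50.2 to 158). All 16 fibroblast markers examined were kept by the filter of at least 1 FPKM in 1 column, from 27.4 to 2098 FPKM uninduced and from 3.84 to 905 FPKM induced. In bulk RNA, fewer cells making a transcript and less transcript per cell cannot be told apart.

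SERPINB7, SERPINB2 and SERPINB8, the serpins of chromosome 18 described here, share a sequence feature upstream of their starts. The stretches below come from RefSeq promoter windows (GRCh38.p14, plus strand, 5′ to 3′) and the first pair ends where an annotated GENCODE exon begins. Capitals mark each match to TGANTCA, the letters bound by AP-1 (JUN and FOS dimers). The SERPINB7 stretch belongs to the third RefSeq start of that gene.

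SERPINB7, chr18:63777531-63777776: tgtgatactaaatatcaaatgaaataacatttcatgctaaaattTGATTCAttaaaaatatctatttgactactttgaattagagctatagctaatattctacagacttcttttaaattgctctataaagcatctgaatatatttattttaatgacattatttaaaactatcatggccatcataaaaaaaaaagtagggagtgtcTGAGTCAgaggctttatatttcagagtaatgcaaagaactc
SERPINB2, chr18:63887455-63887699: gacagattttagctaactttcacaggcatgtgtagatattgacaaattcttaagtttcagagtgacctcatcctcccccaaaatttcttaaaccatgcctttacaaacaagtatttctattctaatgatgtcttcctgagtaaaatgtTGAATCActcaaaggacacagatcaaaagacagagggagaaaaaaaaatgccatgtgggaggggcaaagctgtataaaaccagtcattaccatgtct

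For the second SERPINB7 start and for SERPINB8, only the 29 bases around the match nearest to the start are shown. The 250 bases before each of these starts touch annotated GENCODE exons. For SERPINB7 an exon begins within the bases shown, ahead of the capitals, so the match does not lie clear of exons. For SERPINB8 an exon covers the far end of the 250 bases, and how much of the bases shown is exonic was not determined.

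SERPINB7, second start, chr18:63775368-63775396: gtgctgtgctcTGAGTCAtagggaagcca
SERPINB8, chr18:63970042-63970070: tcgaacggttcTGAGTCAtctgccggaag

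In the 250 bases before each start, TGANTCA (the same on both strands) was found at 4 of the 16 RefSeq starts of the serpins: the single starts of SERPINB2 and SERPINB8 and the second and the third start of SERPINB7. All 3 of these genes are on chromosome 18. Of all 35116 starts in the RefSeq table, 6.57% held such a match. The forkhead form TGTTTAC was sought on both strands and found at none of the 16 starts (2.98% of all), and likewise TATTTAC (2.39% of all) and the form TGTTTGC (3.23% of all). TATAAA, sought on the gene's strand only, was found at 4 of the 16 starts (6.80% of all), 30 bases before the SERPINB2 and the SERPINB9 start. GAANNTTC, a pair of heat shock units read on both strands, lay 71 bases before the first start of SERPINH1, a heat shock protein gene, and 51 bases before the first start of SERPINB7 (5.78% of all starts). These motifs were chosen after the sequences had been seen, and a match is a description of letters, not a binding site.

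The GC content of the upstream stretches varied among the clade B genes, with overlapping ranges on chromosomes 18 and 6. On chromosome 18 the GC content was 37.2% for SERPINB2, 49.2% for SERPINB8, and 52%, 36.8% and 26% for the starts of SERPINB7, against a median of 58% over all starts. On chromosome 6 it was 63.6% for SERPINB1, 74.4% for SERPINB9 and 47.6% to 76.8% for the 4 starts of SERPINB6. SERPINI1 had 64.8%, SERPINH1 70% and 68.4%, and SERPINE2 53.2% and 75.2%. An entry was found for 9 of the 10 genes.

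Before induction the most abundant serpin transcripts were SERPINH1, SERPINB7 and SERPINE2, with 28.4%, 22.5% and 22.3% of the summed level of the 10 genes. After induction SERPINH1 was still highest, and SERPINB7 had dropped from rank 2 to rank 8. The sum over the 10 genes was 828 FPKM uninduced and 651 FPKM induced, and without SERPINB7 it was 642 and 637 FPKM. FPKM is scaled to length, so levels of different genes can be compared, but in neither group can neighbours in the order be separated by their intervals, except SERPINB8 and SERPINB9 in the induced group. Over all 45 pairs of genes, intervals were separate for 27 pairs uninduced and 19 induced.

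**Figure D1:**
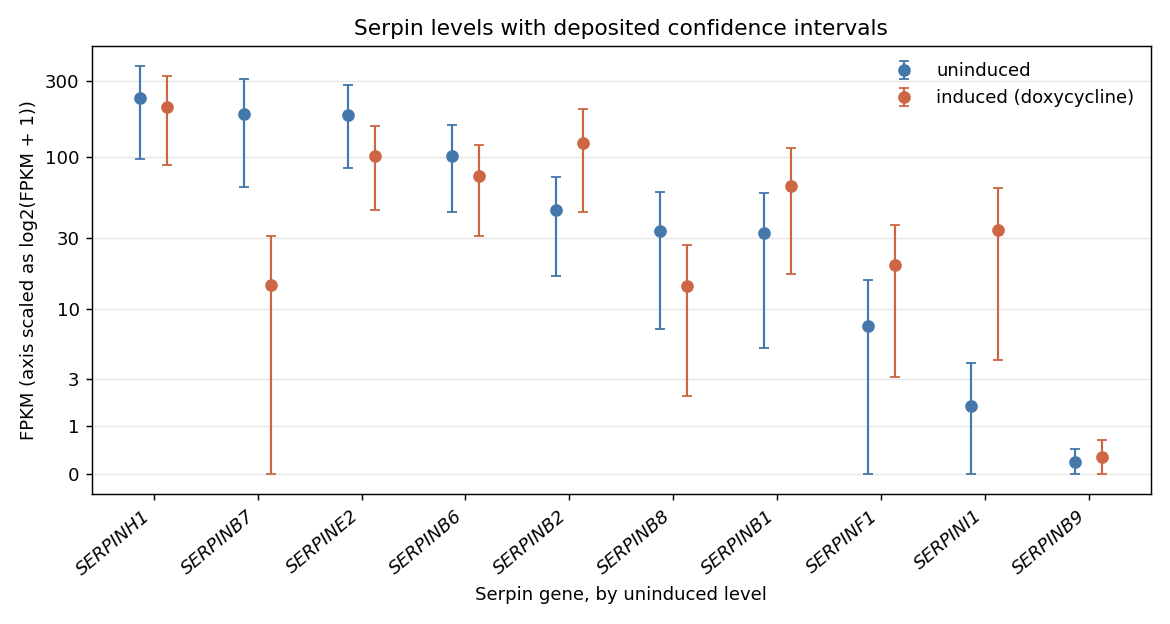
FPKM of the 10 serpin genes, ordered by uninduced level, on an axis scaled as log2(FPKM + 1); points are the deposited values of the uninduced (blue) and induced (orange) groups and bars their deposited confidence intervals. Only for SERPINB7, at 186 and 14.6 FPKM, and SERPINI1, at 1.71 and 33.7 FPKM, do the bars of the groups not overlap.

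Of the 9 genes kept by the filter, 1 rose, SERPINI1, and 1 fell, SERPINB7. Over all 14319 rows kept, 0.726% rose and 0.454% fell by the same criterion. Counted by size alone, 4 serpins were at least 2-fold higher in log2(FPKM + 1) and 2 were at least 2-fold lower, where 9.20% and 6.03% of all rows kept lay that far. Since this contrast was known when the genes were chosen, nothing is read from these shares. The counts by size also rest on genes near the threshold. SERPINB1 had a log2 difference of 1.00, and that of SERPINB8 was -1.15 as deposited and -0.96 at an equal FPKM sum of the columns. The median log2 difference, induced minus uninduced, was -0.19 for the 9 serpins and 0.05 for all rows kept. Once the columns are set to an equal FPKM sum these medians become 0.0016 and 0.23, so the direction of the serpin median depends on the scaling.

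SERPINB7, or megsin, is a clade B serpin known from kidney mesangial cells and from the upper epidermis. It was at 186 FPKM uninduced (interval 64.0 to 309) and at 14.6 FPKM induced (0 to 30.8). Its level thus fell 12.8-fold, or 2.08-fold between the nearest bounds, and its log2 difference was -3.59. Only 7 of all rows kept, this one included, lay as low or lower. Uninduced, SERPINB7 lay above 97.0% of the rows kept, at 1.01 times the level of SERPINE2, and induced it lay above 50.02% of them. Its row (ENSG00000166396) spans chromosome 18, 61420168 to 61472604, in hg19 coordinates as deposited, includes 7 annotated start sites and shares its span with no other row.

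SERPINI1, or neuroserpin, is a secreted inhibitor of tissue plasminogen activator best known from neurons. It was at 1.71 FPKM uninduced (interval 0 to 4.06) and at 33.7 FPKM induced (4.22 to 63.1), a ratio of 19.7. The nearest bounds were only 1.04-fold apart, so this call was a narrow one, and after quantile normalization of the columns the intervals overlapped (log2 difference 3.53, against 3.68 as deposited). A log2 difference as high or higher was found in 51 of the rows kept. The gene (ENSG00000163536; chromosome 3, 167453030 to 167543356) lies 303 bases from PDCD10 in the table. PDCD10, which acts in vascular integrity, had 46.6 FPKM before induction (14.1 to 79.2) and 44.8 FPKM after it (13.7 to 75.9), and these intervals overlap.

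Of the other clade B genes on chromosome 18, SERPINB2, or plasminogen activator inhibitor 2, acts against urokinase. It was at 45.6 FPKM uninduced (interval 16.9 to 74.2) and at 123 FPKM induced (44.4 to 201), 2.69-fold higher with overlapping intervals. SERPINB8, which can inhibit the proprotein convertase furin, was at 33.5 FPKM uninduced (7.21 to 59.7) and at 14.5 FPKM induced (2.09 to 26.9), 2.31-fold lower with overlapping intervals. Along the chromosome the order of these genes is SERPINB7, SERPINB2 and SERPINB8, with gaps of 66.3 kb and 6.93 kb between their rows. The SERPINB2 and SERPINB8 rows also span other genes, so these gaps are not distances between the genes themselves. The gene with the higher induced value sits between the pair with lower ones. Uninduced, SERPINB7 was 4.09 times as abundant as SERPINB2, and induced, SERPINB2 was 8.42 times as abundant as SERPINB7; in the uninduced group their intervals overlapped, and in the induced group they did not.

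The SERPINB2 span in the table is shared with SERPINB10, and the SERPINB8 span with HMSD, so reads may be split between genes. SERPINB10 was at 1.16 FPKM uninduced and 2.99 FPKM induced, both with a lower bound of 0. The library kit kept no strand, and reads from an overlapping antisense gene would be counted with the gene. The other serpins of this cluster, which spans 528 kb with 10 clade B genes, were near or at 0: SERPINB5, or maspin, an epithelial serpin, was at 0.0106 and 0.0425 FPKM, SERPINB4 was listed at 0 in both groups, and SERPINB11, listed at 0 uninduced, was at 1.96 FPKM induced (interval 0 to 5.98).

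**Figure D2:**
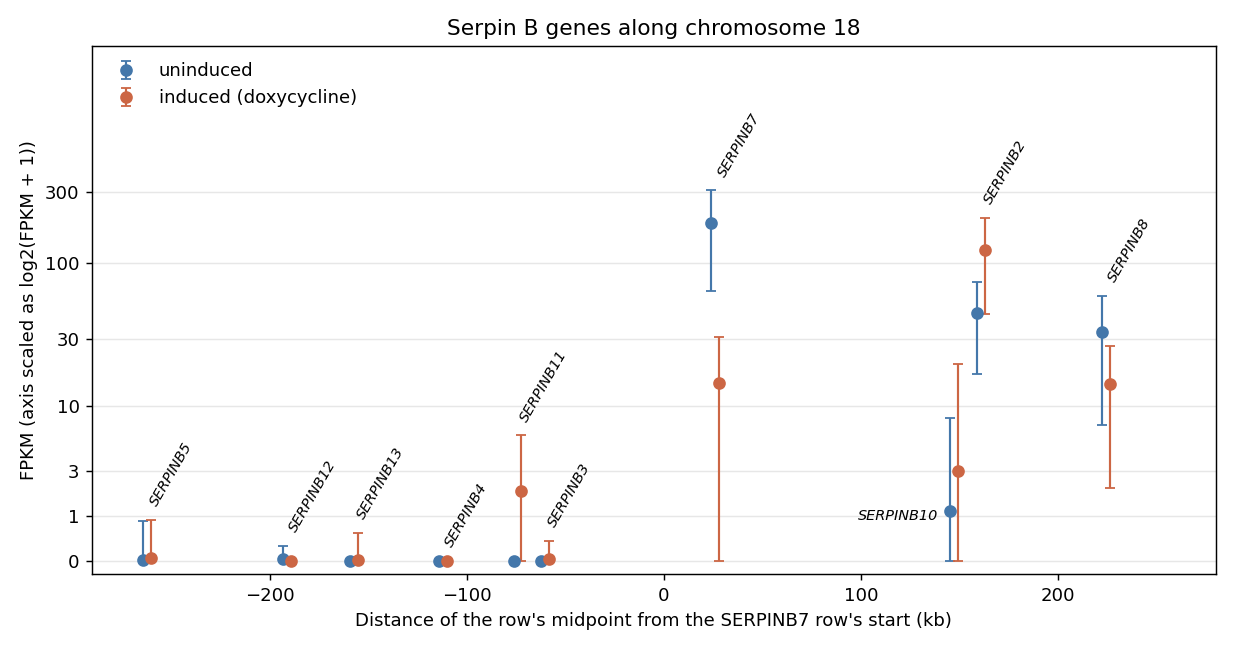
FPKM, on an axis scaled as log2(FPKM + 1), of the 10 clade B serpin genes on chromosome 18 against the distance of each row's midpoint from the start of the SERPINB7 row in kb; bars are deposited intervals, blue is uninduced and orange induced, and genes that share a span are drawn side by side. Only the values of SERPINB7, SERPINB2 and SERPINB8 reach 10 FPKM in either group, while the induced bar of SERPINB10 extends to 20.2 FPKM.

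The second clade B cluster, on chromosome 6, holds SERPINB1, SERPINB9 and SERPINB6 within 140 kb (139.5 kb in the table). SERPINB1, an inhibitor of neutrophil elastase, cathepsin G and proteinase 3, was at 32.1 FPKM uninduced (interval 5.23 to 58.9) and at 65.2 FPKM induced (17.2 to 113). SERPINB6, a cathepsin G inhibitor with wide tissue distribution, was at 101 FPKM uninduced (43.8 to 158) and at 74.9 FPKM induced (30.7 to 119). SERPINB9, the granzyme B inhibitor with which lymphocytes and their partners protect themselves, was at 0.193 FPKM uninduced (0 to 0.445) and at 0.284 FPKM induced (0 to 0.651), and did not pass the filter. All 3 had overlapping intervals, and the summed level of the cluster was 133 FPKM uninduced and 140 FPKM induced.

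**Figure D3:**
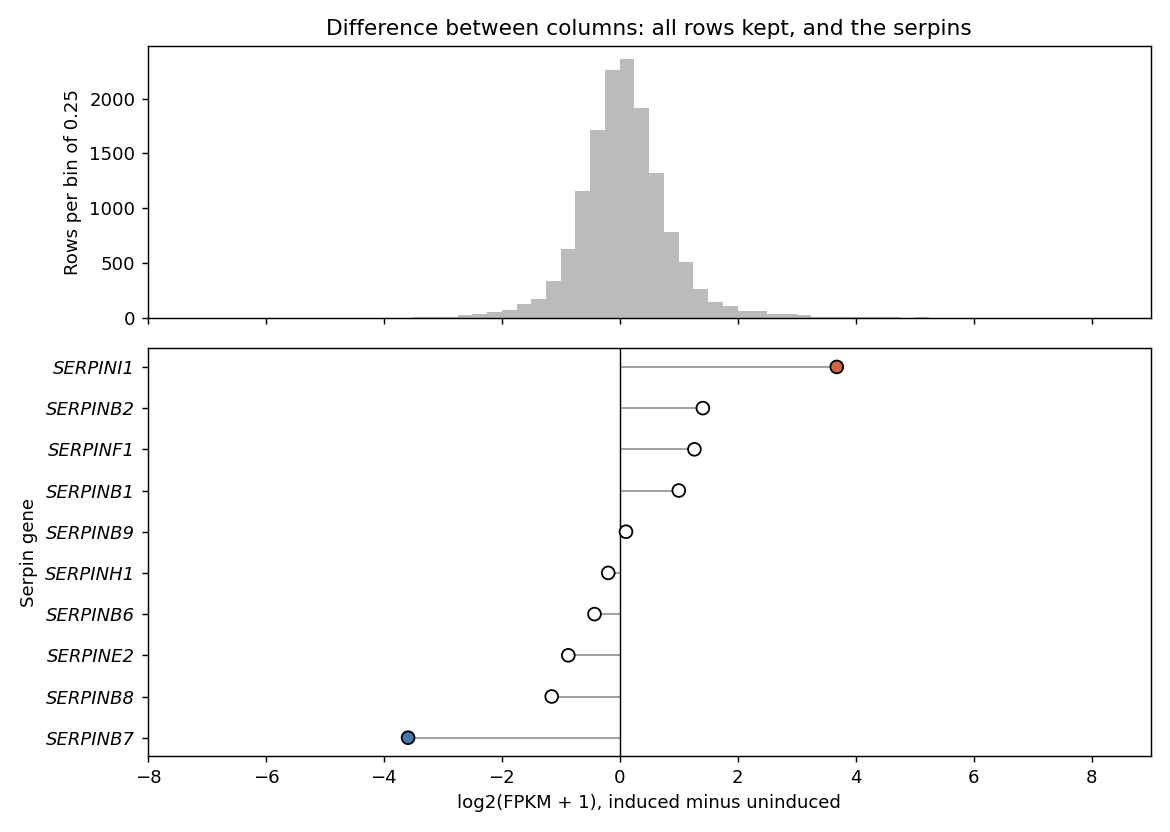
Upper panel, the number of rows kept in each bin of the log2(FPKM + 1) difference, induced minus uninduced; lower panel, the same difference for the 10 serpins, filled where the deposited intervals do not overlap (orange, rose; blue, fell) and open otherwise. SERPINI1 at 3.68 and SERPINB7 at -3.59 lie in the tails of the distribution, and the other 8 serpins lie between -1.15 and 1.41.

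Among the secreted and endoplasmic reticulum serpins no interval pair was separate except that of SERPINI1. SERPINE2, or protease nexin-1, inhibits thrombin, urokinase and tissue plasminogen activator at the cell surface. It was at 185 FPKM uninduced (interval 84.1 to 285) and at 101 FPKM induced (45.5 to 155), a log2 difference of -0.87. SERPINF1, or pigment epithelium-derived factor, inhibits no protease and acts against vessel growth. It was at 7.66 FPKM uninduced (0 to 15.7) and at 19.8 FPKM induced (3.10 to 36.6), a log2 difference of 1.27. SERPINH1, or HSP47, is the chaperone that binds folded procollagen. It was at 235 FPKM uninduced (96.1 to 374) and at 205 FPKM induced (87.9 to 323), a log2 difference of -0.19 that turned to 0.0016 at an equal column sum and to 0.03 after quantile normalization. A pseudogene of SERPINH1, SERPINH1P1, was at 0.0723 and 0.0271 FPKM.

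The width of the intervals sets what can be seen. For the 9 serpins kept, the upper bounds exceeded the values by a median of 65.6% uninduced and 73.6% induced, against 101% and 99.97% over all rows kept. For SERPINB2 the difference was 77.2 FPKM with a half-width of 83.4 FPKM when both intervals are combined, and for SERPINE2 it was -84.3 FPKM with 115 FPKM. Neither difference is separated from 0, and neither is shown to be absent. When a call asks only that such a combined interval leaves out 0, the serpins that rose and fell were again SERPINI1 and SERPINB7.

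Other serpins were mostly near or at 0. Of 22 further family members listed, 3 passed the filter, 9 were listed at 0 in both groups and none rose or fell. SERPING1, the C1 inhibitor of the complement system, was at 0.546 FPKM uninduced (interval 0 to 1.73) and at 9.40 FPKM induced (0.198 to 18.6), with overlapping intervals. The other two that passed were SERPINB10 and SERPINB11, and SERPINE3, the next by mean level, was at 0.440 and 0.755 FPKM.

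A second list of 25 genes held proteases and receptors linked to these serpins, and related proteins, not all of them outside the cell. Of these 25 genes, 12 passed the filter. None rose or fell, 7 of the 12 were below 0 and the median log2 difference was -0.55. Over the same 12 genes the median was -0.36 at an equal FPKM sum of the columns and -0.37 after quantile normalization. At an equal sum GZMA also passed the filter, and the median over the 13 genes was then -0.00099. PLAT, the tissue plasminogen activator, was at 140 FPKM uninduced (interval 54.5 to 226) and at 39.6 FPKM induced (13.5 to 65.6). PLAUR, the urokinase receptor, was at 107 FPKM (45.1 to 169) and 30.4 FPKM (6.37 to 54.5). For these 2 genes the deposited intervals overlapped, but the combined interval of the difference excluded 0. By that looser criterion 180 of the 14319 rows kept rose and 159 fell, and nothing is read from these 2 genes. PLAU, or urokinase, was at 25.2 and 8.42 FPKM, and F2R, the thrombin receptor PAR1, at 82.6 and 172 FPKM; for each the intervals overlapped. The endocytic receptor LRP1, which takes up serpin and protease complexes, was at 39.6 and 46.2 FPKM and its chaperone LRPAP1 at 98.7 and 132 FPKM. RPSA, a ribosomal protein also described as a laminin and SERPINF1 receptor, had values of 687 and 318 FPKM whose intervals overlapped. The leukocyte targets CTSG, GZMB and PRTN3 were listed at 0 in both groups, and ELANE was at 0 and 0.134 FPKM.

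All 24 listed partners of SERPINH1 in collagen folding were kept, none rose or fell, and the median log2 difference was 0.04, beside 0.05 for all rows kept. The list median was 0.24 at an equal FPKM sum, where all rows had 0.23, and 0.27 after quantile normalization, where all rows had -0.03. Levels ranged widely, from P4HA3, a prolyl hydroxylase subunit at 2.35 and 2.23 FPKM with lower bounds of 0, to SPARC. PPIB, a prolyl isomerase, was at 491 and 523 FPKM, P4HB, another such subunit, at 457 and 548 FPKM, and SPARC, a collagen-binding matrix protein, at 1029 and 1063 FPKM. The client chains COL1A1 and COL1A2 were at 754 and 756 FPKM uninduced and at 498 and 519 FPKM induced, with lower bounds of 0. The largest differences were those of COL3A1, at 125 and 445 FPKM, MIA3, which exports collagen from the endoplasmic reticulum, at 28.7 and 82.1 FPKM, and PLOD2, a lysyl hydroxylase, at 121 and 52.3 FPKM, all with overlapping intervals. Heat shock genes, to which SERPINH1 belongs by name, had a median of -0.49 over 14 genes kept, with 11 below 0 and none that rose or fell. Their median was -0.30 at an equal FPKM sum, with 9 below 0, and -0.33 after quantile normalization, with 12 below 0. The chaperone HSPA8 was at 912 and 476 FPKM, HSP90AA1 at 537 and 208 FPKM, HSP90AB1 at 396 and 285 FPKM and the small heat shock protein HSPB1 at 378 and 196 FPKM.

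**Figure D4:**
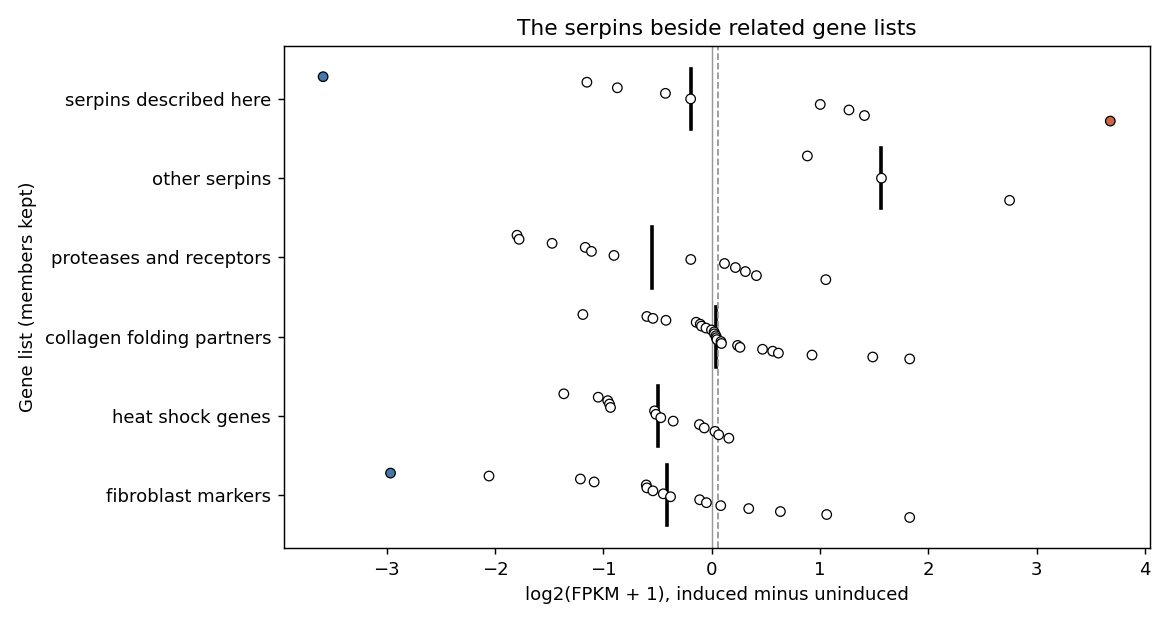
The log2(FPKM + 1) difference, induced minus uninduced, of each gene kept in 6 lists; thick bars are list medians, the dashed line is the median of all rows kept at 0.05, and filled points are genes whose deposited intervals do not overlap. Filled points are SERPINI1, SERPINB7 and the fibroblast marker FAP.

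Of the marker lists for fibroblasts and other cell types, 1 fibroblast gene fell and 1 hepatocyte gene rose; the part of these in the serpin values was not tested. Among fibroblast markers 11 of 16 were below 0, the median was -0.41 (-0.22 at an equal FPKM sum and -0.04 under quantile normalization, with 9 below 0 in each), and 1 fell: FAP, a protease of the fibroblast surface, had 36.8 FPKM uninduced (14.3 to 59.4) and 3.84 induced (0 to 9.41). VIM, or vimentin, had 2098 and 905 FPKM, and COL6A2, a collagen VI chain, had 441 and 323 FPKM; their intervals overlapped. Of 10 keratinocyte markers 2 passed the filter, KRT10 at 16.1 and 10.6 FPKM and LAMB3 at 8.64 and 6.51 FPKM, both with overlapping intervals. SFN was at 0.0922 and 0.118 FPKM and KRT14 at 0.1002 and 0.0433 FPKM, and KRT5 was listed at 0 in both groups. Of 10 leukocyte markers 3 passed, led by CD68 at 94.0 and 178 FPKM (lower bounds of 0, in a span shared with 14 other rows), and the summed level of the list was 95.5 FPKM uninduced and 182 FPKM induced. CD14 was at 0.823 and 2.15 FPKM and PTPRC, or CD45, at 0.547 and 1.30 FPKM, and all 3 had overlapping intervals. CD79A was at 0.150 and 0.163 FPKM. No endothelial marker of 8 passed: TEK was at 0.223 and 0.0256 FPKM, EMCN at 0.152 and 0.0686, VWF at 0.0456 and 0.0579, and CLDN5 at 0.0126 and 0.0184, while the other 4 were listed at 0 in both groups. Of 8 hepatocyte markers 3 passed, and FGB, a fibrinogen chain, rose, with 0.289 FPKM uninduced (0 to 1.54) and 44.2 FPKM induced (13.3 to 75.1). AFP, or alpha-fetoprotein, was at 3.34 FPKM uninduced (0 to 7.56) and 0.318 FPKM induced (0 to 1.71), and APOA1, an apolipoprotein, at 0.102 and 1.21 FPKM, both with overlapping intervals. TF, or transferrin, was at 0.0333 and 0.129 FPKM and ALB, or albumin, at 0 and 0.0434 FPKM.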

How the data were processed

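RNA-seq libraries made with a kit that keeps no strand were mapped to hg19 by TopHat according to the submitters' processing notes; its version, the quantifier, the annotation and any pooling were not given in the sources used. The authors deposited FPKM with confidence bounds, 1 column set per group, per the file headers, and 3 further value columns that match no sample used here were left out. The table holds no counts; depth in reads is therefore unknown.

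Rows with at least 1 FPKM in 1 column were kept (14319), and log2(FPKM + 1) was compared, which understates changes of low genes. Intervals were compared for overlap over all rows kept, and 3 kept rows whose bounds do not enclose their value were never called. The procedure was tested on simulated data without spread between cultures, which checks the code and does not show how reliable the calls are. The genes, lists, criterion and filter were chosen with earlier results of these data known. All 10 serpins are named, and of each other list the called genes and the 4 highest; SERPINB4, SERPINB5, PLAUR, PLAU, LRP1, CTSG, GZMB, PRTN3, ELANE, GZMA, P4HB, P4HA3, COL3A1, MIA3, PLOD2, KRT5, ALB and PDCD10 were chosen after their values were seen. The values of some other serpins are not reported here. Python 3.11.15, pandas 2.3.3, numpy 2.4.6 and matplotlib 3.10.9 were used.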

Additional observations from a re-analysis of the deposited data

How the results depend on the processing

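No paired analysis was possible because each group has a single deposited value; fits without each replicate could not be run for that reason; summing rows of a symbol changed nothing to run, since each serpin has 1 row. Across the alternatives (pseudocount of 0.1, no filter, a mean of at least 5 FPKM, an equal FPKM sum of the columns, quantile normalization, a combined interval that leaves out 0, and only rows above 0 in both columns, the last chosen after seeing the data), 61 of 64 serpin values kept their direction and their call. The exceptions were SERPINH1, whose log2 difference was 0.0016 at an equal sum and 0.030 after quantile normalization, and SERPINI1, no longer called after quantile normalization (3.53), which left 0 serpins that rose. For a serpin that passes them, the filters could change neither value nor call, and the pseudocount neither direction nor call. The combined interval could change only a call. Only the equal sum and quantile normalization could change a direction, so much of the count of 61 was fixed in advance. The log2 difference of SERPINB7 ranged from -3.67 to -3.40 and it was called under every alternative run. When calls ask only for a combined interval without 0, 180 of all rows kept rose and 159 fell, against 104 and 65. The cause of these changes was not tested beyond the construction of each alternative. Depth is not known in reads, so values near 0, such as those of SERPINB9, carry no floor.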
